A study of Homo sapiens with 6 samples.

Results

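MALAT1 and NEAT1 are long noncoding RNAs that stay in the nucleus, and their RT stops were read in 6 libraries of poly(A)+ RNA from U2OS, a human osteosarcoma cell line. The members were all RefSeq transcripts of both genes with listed stops. There were 2 such transcripts, NR_002819 for MALAT1 and NR_028272 for NEAT1, of 15739 transcripts in all, and both had stops in all 6 libraries. NR_144567 and NR_144568 of MALAT1 and NR_131012, the long isoform of NEAT1, had no listed stop in any library. Whether they were in the authors' reference is not given in the sources used here, so the lack of a listed stop does not show that these RNAs were absent. Reads had to fit 1 place among the reference transcripts. Stops listed for NR_002819 or NR_028272 can therefore include those from any isoform that shares their sequence.

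In this assay reverse transcriptase (RT) copies RNA fragments and the nucleotide where it halts is counted. RT was run on RNA without dimethyl sulfate (DMS), with 1 library labelled 150 mM K+ and 1 labelled 150 mM Na+. A further 2 libraries came from purified RNA refolded and DMS-treated in 150 mM K+ or in 150 mM Li+, with RT in 150 mM K+. The last 2 came from living cells given 8% DMS for 5 min, either unstressed or starved for 2 h in Hank's balanced salt solution, again with RT in 150 mM K+. Each group held 1 library, so no difference below has a replicate check and no p-value is given. The names of the deposited data for the 2 libraries without DMS contradict their labels as to the cation. These are therefore called the library labelled K+ and the library labelled Na+, and the main differences between them are given in both directions.

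MALAT1 gathers at nuclear speckles, bodies rich in splicing factors, and NEAT1 is the scaffold on which paraspeckles assemble. The MALAT1 primary transcript is cleaved by RNase P just upstream of a tRNA-like element, and U-rich motifs clamp an A-rich tract into a triple helix at the new 3′ end. The short NEAT1 isoform instead ends in a poly(A) tail. DMS methylates unpaired A and C, which halts RT there. It also methylates N7 of G, and guanines held in an RNA G-quadruplex (rG4), a stack of G tetrads that K+ stabilises, are protected. A folded rG4 halts RT at its 3′-most G.

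MALAT1 NR_002819 was placed on GRCh37 at chr11:65265233-65273940, plus strand, as 1 exon of 8708 nt. All 5967 nucleotides listed for it had the base of the genome at that place. NEAT1 NR_028272 was placed at chr11:65190269-65193992, plus strand, as 1 exon of 3724 nt, and all 3399 listed bases were those of the genome. Positions below count from 1 at the 5′ end of each transcript.

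The 3′ end of MALAT1 is shown from the first U-rich motif to the end of the tRNA-like RNA, chr11:65273500-65273648, with the U-rich motifs and the A-rich tract in capitals. Sequences are in DNA letters, 5′ to 3′.
MALAT1 nt 8268 to 8416: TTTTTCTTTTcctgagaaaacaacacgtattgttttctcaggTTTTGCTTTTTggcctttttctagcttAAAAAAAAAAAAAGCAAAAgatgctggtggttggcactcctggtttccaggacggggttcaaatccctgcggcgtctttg

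The next sequences are the 45 nt that end at the strongest G of each cation-sensitive region, as defined with the values further on. Runs of 2 or more G are in capitals and the stop is at the last letter.
MALAT1 G 3123, chr11:65268311-65268355: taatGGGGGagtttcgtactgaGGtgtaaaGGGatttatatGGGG
MALAT1 G 3798, chr11:65268986-65269030: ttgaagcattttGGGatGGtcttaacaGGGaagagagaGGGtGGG
MALAT1 G 4143, chr11:65269331-65269375: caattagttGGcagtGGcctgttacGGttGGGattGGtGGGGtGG
MALAT1 G 4852, chr11:65270040-65270084: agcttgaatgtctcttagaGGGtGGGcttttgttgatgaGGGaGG
MALAT1 G 6347, chr11:65271535-65271579: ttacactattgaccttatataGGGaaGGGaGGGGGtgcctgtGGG
MALAT1 G 6531, chr11:65271719-65271763: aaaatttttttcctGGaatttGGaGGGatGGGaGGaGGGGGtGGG
MALAT1 G 7397, chr11:65272585-65272629: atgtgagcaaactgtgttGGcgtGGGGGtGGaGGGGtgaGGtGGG
MALAT1 G 7716, chr11:65272904-65272948: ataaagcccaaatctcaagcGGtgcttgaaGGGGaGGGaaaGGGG
MALAT1 G 8157, chr11:65273345-65273389: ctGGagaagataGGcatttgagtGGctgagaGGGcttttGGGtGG
NEAT1 G 370, chr11:65190594-65190638: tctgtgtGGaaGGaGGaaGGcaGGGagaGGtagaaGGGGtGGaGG
NEAT1 G 454, chr11:65190678-65190722: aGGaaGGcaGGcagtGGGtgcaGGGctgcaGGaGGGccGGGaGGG
NEAT1 G 1104, chr11:65191328-65191372: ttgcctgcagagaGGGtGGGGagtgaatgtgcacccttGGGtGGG
NEAT1 G 2097, chr11:65192321-65192365: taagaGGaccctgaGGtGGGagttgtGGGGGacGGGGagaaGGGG
NEAT1 G 2190, chr11:65192414-65192458: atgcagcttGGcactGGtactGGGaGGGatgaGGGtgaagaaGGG
NEAT1 G 2231, chr11:65192455-65192499: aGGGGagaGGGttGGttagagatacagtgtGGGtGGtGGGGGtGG
NEAT1 G 3248, chr11:65193472-65193516: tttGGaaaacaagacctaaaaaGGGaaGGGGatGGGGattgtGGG
Each of these 16 sequences ended in a G run and held several more upstream. They lay in the exon of a noncoding RNA, so none was in a coding sequence.

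Over the 6 libraries the deposited stop counts summed to between 12999691 in unstressed cells and 35371061 in the library labelled K+. Nucleotides with fewer than 3 stops were not listed. Totals per transcript that include the unlisted stops were rebuilt from the deposited ratios, and a transcript's share is its part of all rebuilt stops of the library. Intervals are 95% exact (Clopper-Pearson) intervals and cover counting error only.

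MALAT1 made up 0.0697% of stops (0.0690 to 0.0704) in the library labelled K+ and 0.0713% (0.0705 to 0.0720) in that labelled Na+. In refolded RNA its share was 0.0614% (0.0606 to 0.0623) with K+ and 0.0628% (0.0621 to 0.0635) with Li+. In cells it was 0.0786% (0.0774 to 0.0797) unstressed and 0.244% (0.243 to 0.246) starved. The first 5 libraries thus lay close together and the starved library stood apart. By stops MALAT1 was transcript number 133 in unstressed cells and 41 in starved cells.

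NEAT1 made up 0.0531% (0.0525 to 0.0537) in the library labelled K+ and 0.0597% (0.0591 to 0.0604) in that labelled Na+. Its share was 0.0496% (0.0488 to 0.0503) after refolding in K+ and 0.0484% (0.0478 to 0.0490) in Li+. In cells it was 0.0766% (0.0754 to 0.0778) unstressed and 0.175% (0.174 to 0.176) starved. The order of the libraries was the same as for MALAT1 at the top, with unstressed cells next to starved cells. Per length NEAT1 was the more densely stopped RNA. In unstressed cells it had 4.41 stops per nt and MALAT1 had 1.95, and in starved cells the densities were 18.1 and 10.9.

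**Figure D1:**
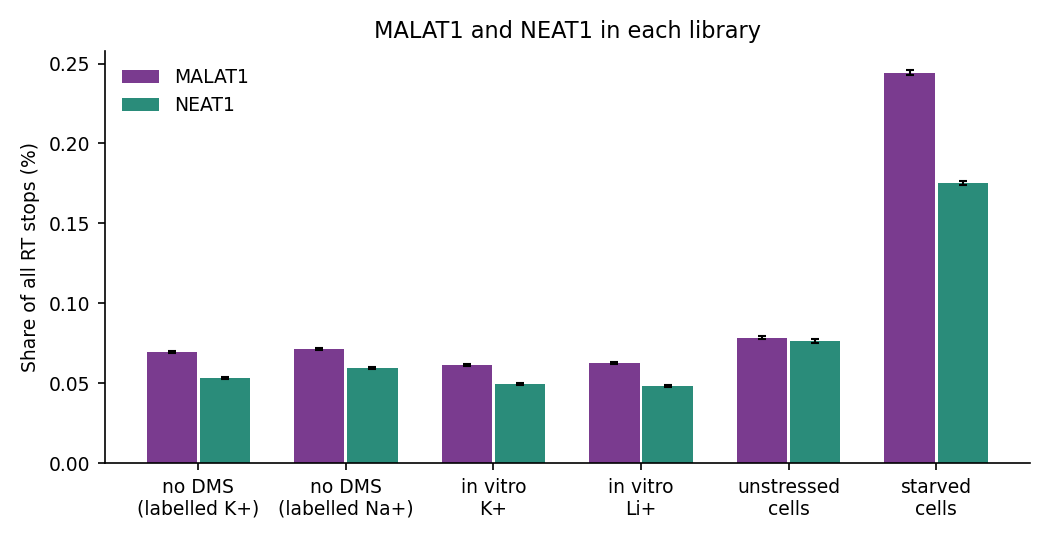
Share of all RT stops (%) on MALAT1 and NEAT1 in each of the 6 libraries; bars are single libraries and error bars are 95% exact intervals for counting error. Both RNAs are highest in starved cells, at 0.244% and 0.175%.

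The comparison of starved with unstressed cells asks how the shares of the RNAs differed after nutrient withdrawal. MALAT1 had a 3.11-fold higher share in starved cells (3.06 to 3.16) and NEAT1 a 2.29-fold higher share (2.25 to 2.32). Both are past the 1.5-fold mark used here to call a transcript. Of the 1383 transcripts that averaged 1 stop per nt or more in both libraries, 335 (24.2%) were called higher and 483 (34.9%) lower, with a median of 0.917-fold. By the size of the fold MALAT1 was number 11 of 1383 and NEAT1 was number 61. A share can be higher because the RNA is more abundant or because others are lower, and these cannot be told apart in bulk RNA, nor can fewer cells and less RNA per cell. These are also shares of RT stops in DMS-treated poly(A)+ RNA, and there was no library of starved cells without DMS. A difference in share need therefore not be one in RNA amount.

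Noncoding transcripts as a class were often higher in starved cells. Of 29 noncoding (NR) transcripts, which include both RNAs, 18 (62.1%) were called higher, with a median of 1.71-fold. Of 1354 protein-coding (NM) transcripts, 317 (23.4%) were called higher, with a median of 0.898-fold. MALAT1 stood just below ZFAS1, a snoRNA host RNA with a 3.12-fold change, and above RPL26, a ribosomal protein mRNA with 2.999-fold.

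**Figure D2:**
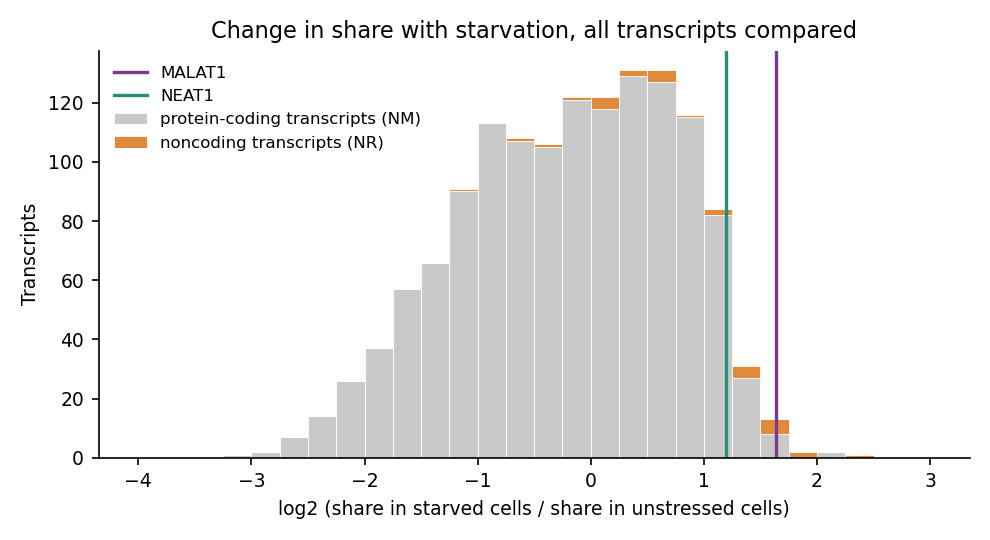
Number of transcripts by log2 of the share in starved over unstressed cells, in bins of 0.25, for 1354 protein-coding and 29 noncoding transcripts; lines mark the 2 RNAs. MALAT1 (3.11-fold) and NEAT1 (2.29-fold) lie in the right tail.

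Within the refolded pair and within the pair without DMS the shares differed far less. Refolding in Li+ against K+ moved the MALAT1 share 1.02-fold (1.00 to 1.04) and the NEAT1 share 0.977-fold (0.958 to 0.996). Without DMS, the library labelled Na+ against that labelled K+ gave 1.02-fold (1.01 to 1.04) for MALAT1. For NEAT1 it gave 1.13-fold (1.11 to 1.14), number 188 of 3626 transcripts, whose median was 0.993-fold. Turned, as labelled K+ over labelled Na+, it was 0.979-fold (0.965 to 0.993) for MALAT1 and 0.889-fold (0.874 to 0.903) for NEAT1, number 3439 of 3626. Cells and refolded RNA lay further apart. Unstressed cells over RNA refolded in K+ gave 1.28-fold for MALAT1 and 1.55-fold for NEAT1, past the 1.5-fold mark and number 331 of 1682 transcripts, whose median was 1.21-fold.

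The change with starvation was not even along MALAT1. No library listed a stop in its first 1290 nt, and the first listed nucleotide was 1291, at chr11 position 65266523. Of 66 GENCODE transcripts of MALAT1, 29 start within the 50 nt before that position and 5 start at or before the start of NR_002819. The share of listed stops was 4.31-fold higher in starved cells at nt 1001 to 2000 and 4.33-fold at nt 2001 to 3000. It was 2.99-fold at nt 3001 to 4000, 2.52-fold at nt 7001 to 8000 and 1.80-fold at nt 8001 to 8708. The 5′ part of the stopped region therefore changed most.

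Stop density was also lower toward the 3′ end of MALAT1. The library labelled K+ had 7.73 stops per nt at nt 1001 to 2000, 5.45 at nt 5001 to 6000 and 0.734 at nt 8001 to 8708. No stop was listed up to nt 1290, so the densities at nt 1001 to 2000 understate those of its stopped part. Starved cells went from 31.2 per nt at nt 1001 to 2000 to 1.82 over the last stretch. NEAT1 ran the other way. Its density in starved cells was 2.57 per nt in the first 500 nt and 50.0 at nt 3501 to 3724, and the library labelled K+ had 2.60 and 9.19. The starved over unstressed fold on NEAT1 was 1.65 at nt 501 to 1000 and 3.20 at nt 3501 to 3724, the lowest and the highest of 8 stretches.

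The bases at which RT halted showed the DMS. On MALAT1, A or C took 52.8% of stops in the library labelled K+ and 48.2% in that labelled Na+. This share was 78.6% after refolding in K+, 78.4% in Li+, 84.1% in unstressed cells and 77.5% in starved cells. On NEAT1 it was 48.0% and 40.9% without DMS, 71.35% and 71.5% refolded, 80.5% unstressed and 70.6% starved. The 4 libraries with DMS were thus all above the 2 without, on both RNAs. The median of 1371 transcripts was 51.1% in the library labelled K+, 77.3% refolded in K+, 83.6% unstressed and 73.9% starved.

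MALAT1 stood out by its balance of A and C. A took 69.1% of its stops in RNA refolded in K+, above 97.2% of the 1371 transcripts, and C took 9.53%, above 0.656% of them. This was not particular to DMS. In the library labelled K+, A took 42.6%, above 98.1% of transcripts, and C 10.2%, above 0.656%. A makes up 30.4% of its nucleotides and C 16.4%. On NEAT1, where A is 24.4% and C 18.2% of the transcript, A took 56.9% and C 14.5% of stops in RNA refolded in K+. The medians were 58.8% and 18.4%, and these shares were above 42.1% and 19.6% of transcripts. A or C together, at 71.35%, was above 4.96%. In unstressed cells C took 13.7% of stops on MALAT1 and 20.0% on NEAT1, and in starved cells 8.88% and 13.8%. C was therefore a smaller part after starvation on both RNAs, as it was for the median transcript, at 23.6% and 16.3%.

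G moved between the libraries without DMS. On NEAT1 it took 23.7% of stops in the library labelled K+ and 35.4% in that labelled Na+, where the medians were 23.8% and 24.5%. On MALAT1 it took 21.7% and 27.9%. The ratio of the G shares was 1.50 for NEAT1, above 98.1% of transcripts, and 1.28 for MALAT1, above 94.4%, against a median of 1.02. Turned, as labelled K+ over labelled Na+, it was 0.669 for NEAT1, above 1.82% of transcripts, and 0.780 for MALAT1, above 5.54%.

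**Figure D3:**
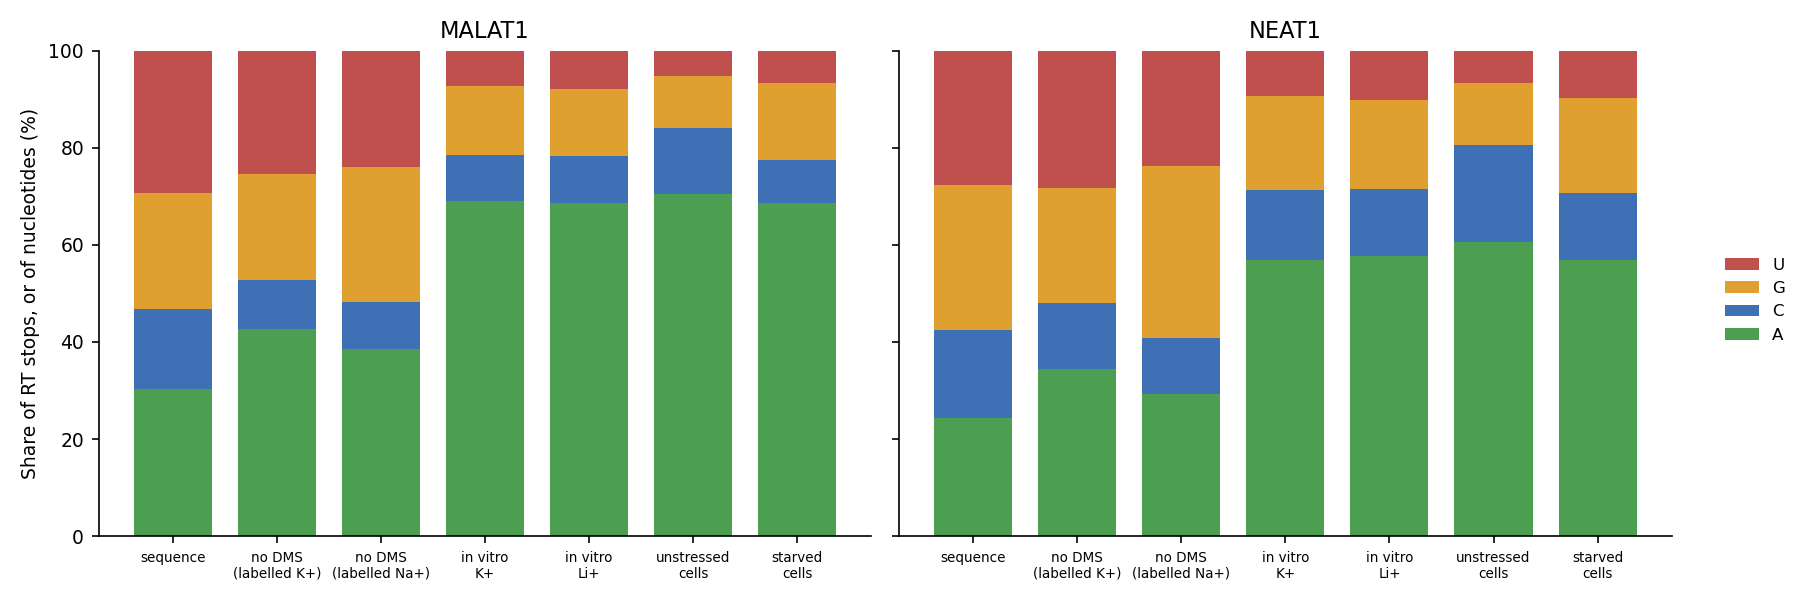
Share of RT stops at A, C, G and U (%) on MALAT1 and NEAT1 in the 6 libraries, beside the base composition of the sequence; each bar is a single library. A or C takes 70.6% to 84.1% of stops with DMS and 40.9% to 52.8% without.

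The A and C profile asks whether the RNAs were stopped at the same nucleotides in cells and after refolding. Over 3055 A and C nucleotides of MALAT1, the Spearman correlation of unstressed cells with RNA refolded in K+ was 0.574. It was 0.701 for starved cells, 0.677 between both cell libraries and 0.779 between both refolded ones. For 1490 nucleotides of NEAT1 the same pairs gave 0.685, 0.722, 0.819 and 0.821. The medians of 1365 transcripts were 0.563, 0.614, 0.620 and 0.775. These are descriptions across nucleotides, which share a transcript and a depth, and deeper transcripts correlate more.

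Refolded RNA and cells therefore differed more than K+ and Li+ did. Set beside transcripts within 1.5-fold of its density in unstressed cells, MALAT1 had a higher correlation of unstressed cells with refolded RNA than 78.0% of 596 transcripts. NEAT1 was above 60.1% of 331. For MALAT1 the rank was not particular to cells against refolding. It was also above 76.5% of its set for both refolded libraries and above 81.2% for both libraries without DMS. For NEAT1 these were 32.9% and 47.4%.

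In windows of 100 nt, the part of the transcript's A and C stops that fell in the window was set against the same part after refolding in K+. With at least 100 such stops in each library, 39 of 88 windows of MALAT1 and 28 of 38 of NEAT1 could be compared. In unstressed cells the ratio ran from 0.407 to 1.97 on MALAT1 and from 0.427 to 2.03 on NEAT1. It was past 1.5-fold in either direction in 12 windows of MALAT1 and 15 of NEAT1. Between RNA refolded in K+ and Li+ it ran from 0.839 to 1.36 on both RNAs and no window passed 1.5-fold.

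The comparison of K+ with Li+ covered 49 windows of MALAT1 and 31 of NEAT1. For unstressed cells over RNA refolded in K+, no window of MALAT1 past nt 5800 had enough stops. Among the windows with enough, the highest lay near the 5′ end of the stopped part of MALAT1 and near the 3′ end of NEAT1. On MALAT1 they were nt 1901 to 2000 at 1.97 (1.70 to 2.28), nt 1801 to 1900 at 1.85 and nt 2001 to 2100 at 1.78. The lowest were nt 5101 to 5200 at 0.407 (0.324 to 0.507), nt 4901 to 5000 at 0.547 and nt 4301 to 4400 at 0.568. On NEAT1 the highest were nt 3201 to 3300 at 2.03 (1.76 to 2.34), nt 3501 to 3600 at 1.66 and nt 3601 to 3700 at 1.65. The lowest were nt 901 to 1000 at 0.427 (0.335 to 0.542), nt 1101 to 1200 at 0.481 and nt 1301 to 1400 at 0.512. The highest windows named on MALAT1 adjoined each other, while its nt 4301 to 4400, at 0.568, lay beside nt 4401 to 4500, at 1.21.

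The highest and the lowest window of each RNA are shown in both states, with capitals at A and C whose stop count was at least 3 times the transcript mean.
MALAT1 nt 5101 to 5200, chr11:65270333-65270432, unstressed cells: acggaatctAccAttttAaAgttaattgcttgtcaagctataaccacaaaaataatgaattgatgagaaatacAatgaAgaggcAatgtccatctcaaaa
MALAT1 nt 5101 to 5200, refolded in K+: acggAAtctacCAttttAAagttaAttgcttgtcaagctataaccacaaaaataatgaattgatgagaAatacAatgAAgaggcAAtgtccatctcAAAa
MALAT1 nt 1901 to 2000, chr11:65267133-65267232, unstressed cells: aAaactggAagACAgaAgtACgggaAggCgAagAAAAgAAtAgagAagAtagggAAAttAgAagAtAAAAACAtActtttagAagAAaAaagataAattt
MALAT1 nt 1901 to 2000, refolded in K+: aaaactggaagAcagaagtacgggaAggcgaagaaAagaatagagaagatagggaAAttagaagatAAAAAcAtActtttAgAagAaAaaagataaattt
NEAT1 nt 901 to 1000, chr11:65191169-65191268, unstressed cells: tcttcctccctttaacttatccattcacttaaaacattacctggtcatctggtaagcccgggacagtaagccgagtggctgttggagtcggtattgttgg
NEAT1 nt 901 to 1000, refolded in K+: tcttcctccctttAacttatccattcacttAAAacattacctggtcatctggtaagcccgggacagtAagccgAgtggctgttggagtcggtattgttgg
NEAT1 nt 3201 to 3300, chr11:65193469-65193568, unstressed cells: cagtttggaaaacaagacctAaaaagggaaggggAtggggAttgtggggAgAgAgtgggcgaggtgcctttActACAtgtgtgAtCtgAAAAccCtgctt
NEAT1 nt 3201 to 3300, refolded in K+: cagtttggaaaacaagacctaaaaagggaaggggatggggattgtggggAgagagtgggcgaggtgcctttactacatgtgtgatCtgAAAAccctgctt
In MALAT1 nt 1901 to 2000 there were 39 such nucleotides in unstressed cells and 16 after refolding, 14 of them shared. In nt 5101 to 5200 there were 7 and 16, with 5 shared. NEAT1 nt 901 to 1000 had 0 in unstressed cells and 6 after refolding, and NEAT1 nt 3201 to 3300 had 17 and 6, with 6 shared. These windows were picked for their ratios, so a higher or lower number in cells follows from the choice.

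Stops at U and G, which DMS halts least, also differed along both RNAs. On MALAT1 nt 1001 to 2000, the part of stops in unstressed cells over that refolded in K+ was 1.34 (1.28 to 1.41) for A and C and 1.40 (1.21 to 1.61) for U and G. At nt 5001 to 6000 it was 0.705 for A and C and 0.709 for U and G. On NEAT1 nt 3501 to 3724 it was 1.62 (1.50 to 1.76) for A and C and 2.27 (1.87 to 2.76) for U and G, and at nt 501 to 1000 it was 0.618 and 0.594. In these stretches A and C and the other bases lay on the same side of 1. Elsewhere the ratios were 0.588 (0.539 to 0.641) for A and C and 0.292 (0.220 to 0.383) for U and G on NEAT1 nt 1001 to 1500. In the same order they were 0.649 and 0.872 on MALAT1 nt 4001 to 5000, and 0.810 and 0.782 on MALAT1 nt 3001 to 4000. On MALAT1 nt 7001 to 8000 they lay on opposite sides of 1, at 0.942 (0.820 to 1.08) and 1.31 (0.852 to 1.98), and both intervals include 1. The last stretch of MALAT1, nt 8001 to 8708, had the highest ratio of that RNA, 1.92 (1.62 to 2.27) for A and C and 2.07 (1.16 to 3.66) for U and G. Over the compared windows, which leave out that stretch, the Spearman correlation of the A and C ratio with position was -0.578 on MALAT1 and 0.807 on NEAT1 in unstressed cells, and -0.746 and 0.975 in starved cells.

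**Figure D4:**
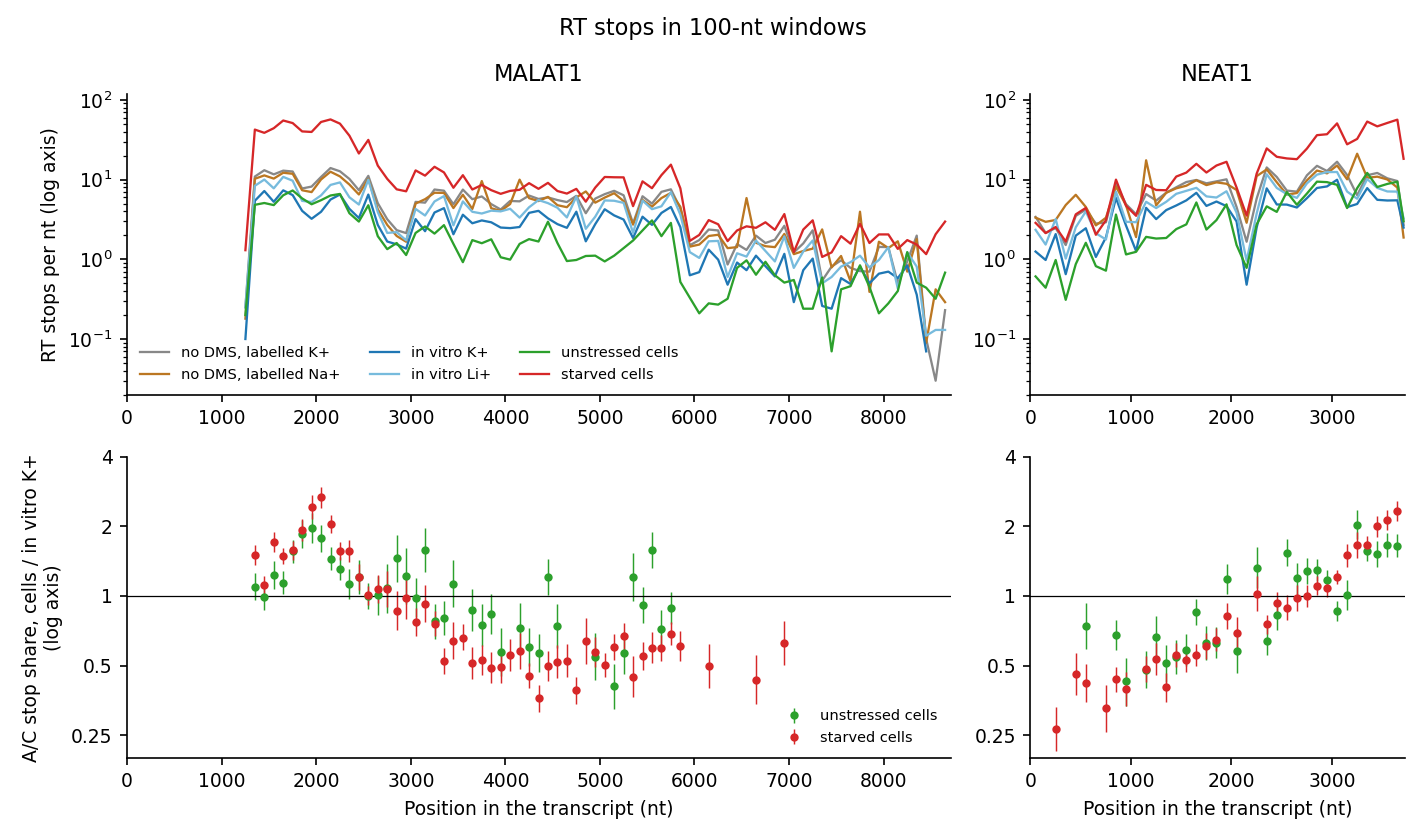
Top, RT stops per nt (log axis) in 100-nt windows along MALAT1 and NEAT1 in the 6 libraries, with windows without listed stops left blank. Bottom, part of the A and C stops in each window in cells over the part in RNA refolded in K+ (log axis), with 95% exact intervals; among windows with enough stops, the ratio is highest in the 5′ part of MALAT1 and the 3′ part of NEAT1.

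Strong stops without DMS were taken as nucleotides where the stop count is at least 10 times the transcript mean, a ratio called E. In the library labelled K+ MALAT1 had 2, both at A, and NEAT1 had 0. In the library labelled Na+ MALAT1 had 18. A was the base at 1 and G at 17, or 94.4% (74.2 to 99.0 by the Wilson method). NEAT1 had 14 there, and all 14 were at G (interval 78.5 to 100.0). G made up 22.5% of the listed nucleotides of MALAT1 and 27.5% of those of NEAT1 in that library. Of 3626 transcripts, 27 (0.745%) had as many strong stops at G as MALAT1 and 45 (1.24%) as many as NEAT1, with no allowance for length. Per 1000 nt, the rates at G were 1.95 for MALAT1 and 3.74 for NEAT1 against 0.534 over all these transcripts.

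The 2 strong stops at A are shown as the 45 nt that end at the stop.
MALAT1 A 2215, chr11:65267403-65267447: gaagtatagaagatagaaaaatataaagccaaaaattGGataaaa
MALAT1 A 8398, chr11:65273586-65273630: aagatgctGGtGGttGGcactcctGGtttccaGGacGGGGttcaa
MALAT1 A 2215 had 46 stops in the library labelled K+ (E 10.4), 28 in that labelled Na+ (6.48), 19 and 15 after refolding in K+ and Li+, 16 in unstressed cells and 139 in starved cells (12.8). MALAT1 A 8398 had 108 stops in each library without DMS (E 24.4 and 25.0), 11 and 24 refolded in K+ and Li+, 23 in unstressed cells (11.8) and 98 in starved cells (9.02). It lies in the tRNA-like RNA, in the stretch that matches the T-loop of a tRNA, and was strong whichever cation the label gave.

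A G was called cation-sensitive when its E was at least 10 in one library without DMS and at least 2 times its E in the other, and such stops within 30 nt were merged into a region. In the library labelled Na+ 17 stops of MALAT1 in 9 regions and 14 stops of NEAT1 in 7 regions qualified. In the library labelled K+ 0 qualified on either RNA. Every strong stop at G in these RNAs was thus cation-sensitive, and all pointed to the same library. Which cation was used in that library cannot be told from labels and data names that contradict each other.

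The largest counts on MALAT1 were at G 3798, with 10 stops in the library labelled K+ and 420 in that labelled Na+, a 43.1-fold difference in E (23.2 to 90.4). G 6531 had 4 and 387 stops, 99.2-fold (38.4 to 366), and G 4143 had 6 and 351, 60.0-fold (27.3 to 165). G 4852 had 5 and 293, 60.1-fold (25.5 to 186), and G 4144, beside G 4143, had 8 and 272 (E 63.0 in the library labelled Na+). These 4 regions held the highest E values on MALAT1, from 67.8 to 97.3 in the library labelled Na+. In G 7716, G 7397, G 8157 and G 6347 the library labelled Na+ had 156, 95, 94 and 59 stops and that labelled K+ had none listed. G 3123 had the smallest difference, 26 and 63 stops, 2.48-fold (1.55 to 4.09). Turned, as labelled K+ over labelled Na+, the ratio of E was 0.0232 at G 3798, 0.0101 at G 6531, 0.0167 at G 4143, 0.0166 at G 4852 and 0.403 at G 3123.

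On NEAT1 the highest was G 1104, with 13 stops in the library labelled K+ and 862 in that labelled Na+, 61.7-fold in E (35.9 to 116). G 3248 had 8 and 667, 77.6-fold (39.1 to 180), and its region held 6 stops from nt 3247 to 3264, among them G 3249 with 17 and 234. G 2231 had 4 and 354, 82.4-fold (31.9 to 304). G 2097 had 6 and 347, 53.8-fold (24.5 to 148). The remaining regions were smaller. G 454 had 3 and 227 stops, G 370 had 6 and 158, and G 2190 had 5 and 86. Turned, the ratio was 0.0162 at G 1104, 0.0129 at G 3248, 0.0121 at G 2231 and 0.0186 at G 2097. NEAT1 thus had its single strongest stop in the 5′ part and its widest region near the 3′ end.

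The sequences were searched, on the RNA strand, for a motif of 4 G runs, each 3 G or longer and 1 to 7 nt apart, and for a looser motif of 4 G runs, each 2 G or longer and 1 to 9 nt apart. A match to the first also holds the second. On MALAT1 3 of 17 stops had the first motif in their 45 nt and 13 had the second. On NEAT1 7 of 14 had the first and 12 the second. Of 1748 G of MALAT1 and 1095 of NEAT1 from the first listed nucleotide on, 0.629% and 2.83% had the first motif in the 45 nt before them, and 14.0% and 33.9% the second. Both motifs were therefore held by a larger part of the cation-sensitive stops than of all these G, which include the stops. Stops of a region overlap in their 45 nt and are not separate cases. NEAT1 G 3248, G 3249, G 3258, G 3259 and G 3264, of a single region, all had the first motif. MALAT1 G 3123, MALAT1 G 4852 and NEAT1 G 1104 had neither at their strongest stop, since a loop in each is longer than those searched.

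Across libraries, the 17 stops of MALAT1 together took 7.23% of its stops (6.97 to 7.49) in the library labelled Na+ and 0.246% (0.199 to 0.301) in that labelled K+. They took 0.827% (0.711 to 0.956) refolded in K+ and 0.403% (0.335 to 0.481) in Li+. In cells they took 0.0944% (0.0540 to 0.153) unstressed and 0.291% (0.257 to 0.327) starved. Since the stops were picked for being high in the library labelled Na+ and lower in that labelled K+, the difference between those libraries follows from the choice, here and for NEAT1.

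The 14 stops of NEAT1 took 12.6% of its stops (12.2 to 13.0) in the library labelled Na+ and 0.327% (0.265 to 0.400) in that labelled K+. Refolded, they took 1.49% (1.31 to 1.68) in K+ and 0.8003% (0.690 to 0.923) in Li+. In cells they took 0.375% (0.288 to 0.480) unstressed and 0.948% (0.876 to 1.02) starved. RNA refolded in K+ over Li+ was 1.86 on NEAT1 (1.53 to 2.25) and 2.05 on MALAT1 (1.62 to 2.61), while all G stops of these RNAs gave 1.05 and 1.04. Single G went both ways, as examples picked after their values were seen. MALAT1 G 4853 had 46 stops in K+ and 10 in Li+, its neighbour G 4852 had 0 listed and 6, and NEAT1 G 3247 had 11 and 17. In sum these G thus differed between the cations of refolding more than G as a whole.

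Starved over unstressed cells, the summed part was 2.53 on NEAT1 (1.95 to 3.34) and 3.08 on MALAT1 (1.86 to 5.47). All G stops of the RNAs gave 1.52 and 1.49, near the median of 1.603 over 1371 transcripts. The depth behind the unstressed value was small. It rested on 62 stops at 9 listed G of NEAT1 and 16 stops at 4 listed G of MALAT1. With 2 stops put at each G that was not listed, the ratio was 2.18 on NEAT1 and 1.18 on MALAT1, so for MALAT1 a difference beyond that of all G was not detectable at this depth. Most of the 62 unstressed and 643 starved stops of NEAT1 lay in 1 region, nt 3247 to 3264. In order along the RNA, its 6 G had 5, 13, 19, 4, 4 and 4 stops in unstressed cells. In starved cells they had 54, 172, 96, 60, 65 and 42, so the NEAT1 ratio mainly describes that region. At NEAT1 G 3248 the libraries had 13 stops unstressed (E 2.95) and 172 starved (9.504), 3.23-fold (1.84 to 6.18). NEAT1 G 1104 was 0.975-fold (0.388 to 2.92) and MALAT1 G 3123 was 0.589-fold (0.245 to 1.62). The other strongest G of regions that both cell libraries listed had a higher E in starved cells. Among the G that both listed, only the interval at G 3248 excludes 1. Some were listed in starved cells only, with 47 stops at NEAT1 G 2231 and 31 at MALAT1 G 3798. Taken as 0 in unstressed cells, their ratios had lower bounds of 2.99 and 1.42, and the others of this kind had lower bounds below 1. With 2 stops in unstressed cells, E was 0.453 against 2.60 in starved cells at G 2231, and 1.03 against 2.85 at G 3798.

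**Figure D5:**
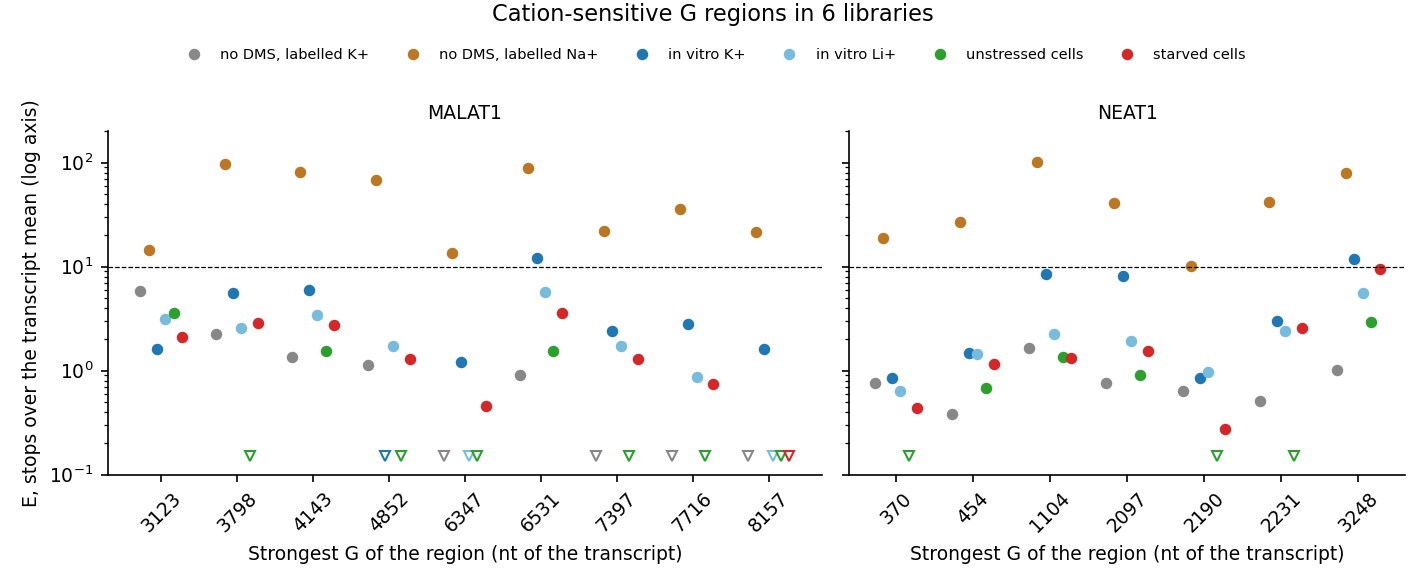
E (stop count over the transcript mean, log axis) at the strongest G of each cation-sensitive region in the 6 libraries; open triangles at the base mark G that were not listed, and the dashed line is E of 10. The library labelled Na+ is above 10 in all 16 regions, and refolded RNA is highest in K+ at MALAT1 G 6531 and NEAT1 G 3248.

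A folding score places the E seen in cells between that of RNA refolded in Li+, scored 0, and in K+, scored 1. It was computed where both refolded libraries listed the G and E in K+ was at least 2 times that in Li+, which 3 regions of each RNA met. On NEAT1, G 3248 had 56 stops in K+ and 35 in Li+, and scored -0.421 in unstressed and 0.614 in starved cells. G 2097, with 38 and 12 stops, scored -0.165 and -0.0610. G 1104, with 40 and 14, scored -0.141 and -0.146. In unstressed cells all 3 were thus below RNA refolded in Li+.

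On MALAT1, G 6531 had 30 and 20 stops in K+ and Li+ and scored -0.673 unstressed and -0.345 starved. G 3798, with 14 and 9, scored -0.859 and 0.0885. G 7716, with 7 and 3, scored -0.445 and -0.0650. Neither G 3798 nor G 7716 was listed in unstressed cells, and both were scored there as 0 stops. With 2 stops in place of 0, G 3798 scored -0.518 and G 7716 scored 0.0851 in unstressed cells, so the sign at G 7716 turned. The intervals of K+ over Li+ include 1 at G 3798 (0.873 to 5.67) and at G 7716 (0.741 to 19.5), so these scores rest on few stops.

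The 3′ end of MALAT1 was sparsely stopped. The first U-rich motif, nt 8268 to 8277, had 0 listed stops in every library. The second, nt 8310 to 8320, had 39 and 34 without DMS in the libraries labelled K+ and Na+, 7 and 19 refolded in K+ and Li+, 7 in unstressed and 23 in starved cells. The A-rich tract, nt 8337 to 8355, holds 17 A and had 0 stops in the library labelled K+ and in both refolded libraries, 3 in that labelled Na+, 3 in unstressed and 8 in starved cells. Over the body of the RNA, E at A averaged 2.58 refolded in K+ and 2.503 in unstressed cells. In the A-rich tract it was 0 refolded in K+ and 0.0906 in unstressed cells, with A under 3 stops taken as 0. With 2 stops at each such A, it was at most 0.80 and 1.06 in the tract, against 2.77 and 2.90 over the body. Density around the tract was low as well.

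Past the tRNA-like RNA, which the mature RNA lacks, nt 8417 to 8708 had 36 stops in the library labelled K+, 80 in that labelled Na+, 16 and 37 refolded in K+ and Li+, 144 in unstressed and 611 in starved cells. The density there was 0.493 per nt in unstressed and 2.09 in starved cells, against 1.94 and 13.1 over the body. The cell libraries thus had more stops in this stretch than the refolded ones, although the unstressed library was the shallowest.

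Across the 6 libraries the patterns nearest to MALAT1, by Euclidean distance of centred log2 shares, were ZFAS1 (0.13), SNHG8 (0.19) and SNHG6 (0.25), all snoRNA host RNAs. Those nearest to NEAT1 were the mRNA of the ribosomal protein RPL36A (0.21), the metallothionein MT1E (0.26) and the ribosomal protein RPS27 (0.26). The median distance of 1371 transcripts was 1.74 from MALAT1 and 1.61 from NEAT1.

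Over all 1383 transcripts, 24.2% were called higher in starved cells and 34.9% lower, and the lists below stand beside these shares. Of 20 mRNAs of paraspeckle proteins, 11 had enough stops in both cell libraries, 0 were called higher in starved cells and 7 lower, with a median of 0.534-fold against 0.917 over all. HNRNPK was 0.646-fold, NONO 0.526-fold and SFPQ 0.379-fold, and HNRNPA1 was 1.31-fold. Of 20 mRNAs of nuclear speckle proteins 8 had enough stops, 0 were called higher and 3 lower, with a median of 0.801-fold, and 3 of 8 is near the 34.9% over all. SRSF3 was 1.11-fold, SRSF1 0.931-fold and SRSF2 0.450-fold, and SF3B1, with too few stops per nt, had 289 ppm of all stops in unstressed and 378 in starved cells. Others with too few stops went both ways, and these were picked after their values were seen. The splicing kinase CLK1 had 26.8 ppm unstressed and 129 ppm starved and PNN had 106 and 189, while SRRM2 had 368 and 206 and SON had 193 and 124. Of 6 genes of end processing and the triple helix, XRN2 could be compared, at 0.867-fold. HNRNPC had 571 ppm of all stops in unstressed and 575 in starved cells, and ELAC2, the enzyme that trims tRNA 3′ ends, had 67.9 and 15.5.

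Other long noncoding RNAs were mixed. Of 18 cytoplasmic noncoding RNAs and snoRNA hosts, 12 had enough stops, 8 were called higher and 0 lower, with a median of 2.13-fold. The share called higher was 24.2% over all transcripts and 62.1% over noncoding ones. BCYRN1 was 3.75-fold, ZFAS1 3.12-fold, OIP5-AS1 1.40-fold and DANCR 1.04-fold. Of 12 other nuclear or chromatin noncoding RNAs 9 had stops and 0 had enough for the comparison. KCNQ1OT1 had 90.2 ppm of all stops in unstressed and 383 in starved cells, TUG1 had 129 and 157, and PVT1 had 72.3 and 59.6. The folds of MALAT1 and NEAT1 lay within the range of the cytoplasmic RNAs and snoRNA hosts, 0.687 to 3.75.

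The label of an osteosarcoma line was set against markers. Of 7 mesenchymal markers 6 had stops, led by VIM with 2118 ppm of all stops in unstressed cells, and COL1A2 had none listed. Their summed level was 3830 ppm in unstressed and 2452 ppm in starved cells, and between 3782 and 4002 ppm in the other 4 libraries. Of 7 markers of other cell types 4 had stops. Their sum was 4.25 ppm in unstressed cells, 6.15 in starved cells and at most 8.15 elsewhere, led by EPCAM, with KRT5, CD3E and ALB at 0 in all libraries. PTPRC, CDH1 and PECAM1 had at most 9 listed stops in any library. VIM was 0.876-fold and SPARC 0.285-fold in starved over unstressed cells. The lower mesenchymal sum in starved cells stands beside the higher shares, and its part in the shares of MALAT1 and NEAT1 was not tested.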

How the data were processed

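RT stops were measured in 6 libraries of U2OS poly(A)+ RNA, 1 per group. Per the study's methods, a read counted when it fitted 1 place among hg19 transcripts without error, with Bowtie as the aligner. Duplicate reads (SAMtools), barcodes and adapters had been removed beforehand. Versions are not given in the sources used here. The RNA had been fragmented. The deposited values are stop counts of at least 3 per nucleotide and a ratio, the authors' count over the mean count at that base (all A, for an A) along the transcript. The methods name K+ or Li+ for RT, the labels K+ or Na+.

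Listed totals ranged from 12999691 to 35371061 stops per library. Listed bases were used to pair RefSeq with GENCODE transcripts (release lifted to GRCh37), which placed 10363 of the 11031 that had 15 or more, and MALAT1 and NEAT1 to chromosome 11. Base means, taken as count over ratio, times base numbers gave stops with the unlisted ones included. For NEAT1 this needed 24 A beyond the genome, so its E uses 3748 nt. E was count over the mean of the entire transcript. Shares have exact binomial intervals, ratios exact conditional ones and shares at a base Wilson ones, all at 95%. Transcripts that averaged 1 stop per nt or more were compared. No difference was tested, since each group had 1 library.

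The text names every RefSeq transcript of both genes, the 5 strongest stops by E per RNA and library without DMS as far as E reached 10, every cation-sensitive region up to 10 per RNA, the 3 highest and 3 lowest windows of 100 nt, the motifs at the 3′ end, the 3 nearest transcripts, and 2 to 4 members of each list by mean share. The members and lists were chosen with earlier results of these data known. Sums over the cation-sensitive stops and the U and G ratios along the RNAs were computed after the values were seen. Results were computed again under 25 other settings and 1 more added after seeing the data. The closing section gives the values that moved past the tolerance, and the others stayed within it. They included Pearson correlation, A only, the deposited ratio as E, cation folds of at least 1.5 and 3, and E over the mean of U and G. Figures were drawn with matplotlib 3.10.9, and values computed in Python 3.11.15 (scipy 1.17.1, pandas 2.3.3, numpy 2.4.6), and the steps were tested on simulated data.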

Additional observations from a re-analysis of the deposited data

How the results depend on the processing

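When the main values were computed again under other settings, 86 stayed within the tolerance and 38 moved past it. No fold, correlation or median score changed direction, while the score at MALAT1 G 7716 in unstressed cells went from -0.445 to 0.0851 with 2 stops at each unlisted G, and the counts of cation-sensitive stops changed sides with the cations swapped. The tolerance was the 95% counting interval for folds, 0.1 for correlations and scores, and 1.5-fold for counts. The cause was not tested. Of the counts of called genes in the lists, 45 stayed and 5 moved. In 3 settings 1 of the cytoplasmic RNAs and snoRNA hosts was called lower, and with listed stops only or thinned libraries 1 nuclear speckle mRNA was called higher. The starved over unstressed share stayed above 1.5-fold throughout. For MALAT1 it was 3.63 with listed stops only, 2.76 with stops at U and G, 2.95 without nucleotides of at least 10 times the mean, 3.93 with libraries thinned to the smallest and 2.67 over transcripts that averaged 1 stop per nt or more in all 6 libraries. For NEAT1 these gave 2.43, 2.16, 2.19, 2.69 and 1.96. The Spearman correlation of cells with RNA refolded in K+ was, with C only, 0.324 unstressed and 0.371 starved on MALAT1 and 0.492 and 0.535 on NEAT1. In windows of 20 nt it was 0.775 and 0.907 on MALAT1 and 0.842 and 0.840 on NEAT1. Over nucleotides listed in both libraries it was 0.428 and 0.577 on MALAT1 and 0.576 unstressed on NEAT1. Strong stops with E of at least 5 numbered, in the library labelled K+, 105 on MALAT1, 17 of them at G, and 14 on NEAT1; in that labelled Na+ they numbered 107 on MALAT1, 41 of them at G, and 27 on NEAT1. With E of at least 20 MALAT1 had 1 in the library labelled K+ and 10 in that labelled Na+, 9 at G. With the mean from the first listed nucleotide, chosen after seeing the data, MALAT1 had 1 in the library labelled K+. Cation-sensitive stops on MALAT1 numbered 9 with E of at least 20 in the library taken as Na+, and 2 with E of at least 5 in that taken as K+. With the cations of both libraries swapped, the counts changed sides, to 0 in the library taken as Na+ for both RNAs and to 17 on MALAT1 and 14 on NEAT1 in that taken as K+. The median folding score of MALAT1 in unstressed cells was -0.518 with 2 stops at each unlisted G. No paired analysis was possible because every group held 1 library, replicate number 1. Depth limits the values. Unstressed cells had 12999691 listed stops against 35371061 in the library labelled K+, and a nucleotide under 3 stops reads as 0. MALAT1 in unstressed cells had the lowest density, 1.95 stops per nt.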
